A study of Homo sapiens with 24 samples.

Results

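Chromosomes 16, 17, 20 and 22 are among the GC-rich, gene-dense chromosomes of the human genome. They were described here by all 1 kb bins that were not 0 in every one of the 12 columns of the OG-seq table, leaving out the outer 1 Mb of each chromosome and chr22 before 17 Mb. This gave 244170 of 2835235 bins (8.61%). Of these, 77059 lay on chr16, 76360 on chr17, 59156 on chr20 and 31595 on chr22. Of 263534 bins on these chromosomes, 10997 were 0 in every column, 6303 lay in the outer 1 Mb and 2064 in proximal chr22. The name fits the sequence: the mean GC content of the bins was 45.1%, against 40.4% in 2523890 bins chosen the same way on the other 19 chromosomes. By GC content chr22, chr17, chr16 and chr20 held ranks 2 to 5 of 23, below chr19 at 48.3%.

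In OG-seq, DNA fragments with 8-oxoguanine (OG) are enriched and read together with input DNA. The cells were HAP1, a near-haploid human cell line, either WT or with CRISPR-Cas9 knockouts labelled MUTYH-/, OGG1-/ and MUTYH-/ X OGG1-/ (DKO). The table holds 3 columns per genotype. By the labels the 3 libraries of a genotype come from 2 clones, so that a clone is represented by 2 libraries or by 1. The authors list an OGG1-/ clone as the parent of the DKO clones. Which clone or experiment gave a column was not known here, so a p-value measures only the spread between columns. A deposited value is the OG reads of a bin minus its scaled input reads. Each column was divided by its mean over all bins, and the result is called relative OG, where 1 is the average bin of that column. Depth was 59601849 to 113915679 OG reads per column, or 21.0 to 40.2 reads per bin, so single bins carry a large counting error and most results below are means over many bins.

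Guanine is the base that is most easily oxidised, and runs of guanines are its most reactive context. OG can pair with adenine when DNA is copied. OGG1 cuts OG out opposite cytosine, and MUTYH removes the adenine that was placed opposite OG. GC-rich chromosomes offer more guanines per bin and also hold more genes, CpG islands and motifs that can fold into G-quadruplexes (G4).

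What such sequence looks like is shown by the bins that hold the start of a protein-coding gene. On each chromosome, the start bin with the highest mean relative OG among those above 0 in all 12 columns is set beside the lowest. Given is the stretch of 30 bases with the most bases in runs, out of the 250 bases before the annotated start, which may lie in the neighbouring bin, 5′ to 3′ on the gene's strand, from GRCh38 with GENCODE 44. Capitals mark runs of at least 3 G or at least 3 C, searched on the gene's strand only. A run that continues past an end of the stretch is marked and counted in the part shown.
SLX1A (highest of chr16, + strand, chr16:30193625-30193654): gcaGGGacacaaCCCCagctcGGGcgccgg
XYLT1 (lowest of chr16, - strand, chr16:17471001-17471030): ctCCCtcggctcctCCCCCaggCCCCgCCC
TBC1D3H (highest of chr17, - strand, chr17:36388505-36388534): tctGGGcgctgctgaCCCGGGcaaggCCCC
ABCA9 (lowest of chr17, - strand, chr17:69061125-69061154): ccagccaaccatctgcaactacaaactCCC
MANBAL (highest of chr20, + strand, chr20:37289498-37289527): tCCCCaaacctctttgtccagctcgaaCCC
TCFL5 (lowest of chr20, - strand, chr20:62861977-62862006): GGGGGcgtggctGGGccgtGGGGGcGGGCC
C22orf23 (highest of chr22, - strand, chr22:37953739-37953768): CCCCgctgcgCCCCggtCCCgcgcggagaC
MGAT3 (lowest of chr22, + strand, chr22:39456940-39456969): gCCCCCgcgcaggccgCCCCGGGccgtGGG
Such a run was found before 2810 of 2815 protein-coding starts with a bin on these chromosomes, and the richest 30 bases held a median of 13 bases in runs. Of the 8 stretches, those of TCFL5, XYLT1 and MGAT3 held the most bases in runs, with 18, 15 and 15. Those of XYLT1, ABCA9 and MGAT3 lie in the bin next to the start bin, so the start bin's value is not that of the printed bases. That of TCFL5 lies partly in the next bin.

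These 8 bins were picked by their values, so the values are a description. The start bin of SLX1A, a subunit of a nuclease that cuts branched DNA, lay between 1.70 and 10.1 in the 12 columns, with 6.63 ± 0.157 (SD, n = 3) in WT and 3.57 ± 1.27 in DKO. That of TBC1D3H, of a family of Rab GTPase-activating proteins, lay between 0.60 and 9.61 in the 12 columns. Both genes have near-identical copies elsewhere in the genome between which reads can be shared, and their input reads were 2.45 and 2.47 times the mean bin. The start bin of MGAT3, a glycosyltransferase, held no input read in any column and was listed at 0 in 10 columns, and that of TCFL5, a transcription factor, had 0.0148 of the mean input. Both bins are over 80% GC (83.0% and 80.9%), and hardly any DNA was sequenced there. The start bin of XYLT1, also GC-rich, had 0.484 of the mean input. In ABCA9, a lipid transporter gene with 28.9% GC at its start, the input was 0.869 of the mean and relative OG ranged from -1.803 to 2.05.

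The first question was whether GC-rich chromosomes carried more OG signal than the rest of the genome. Relative OG was higher on chr16, chr17, chr20 and chr22 than on the other 19 chromosomes in every one of the 12 columns. The mean of the bins in columns 1 to 3 was 1.26, 1.22 and 1.22 for WT and 1.37, 1.21 and 1.18 for MUTYH-/. For OGG1-/ it was 1.25, 1.36 and 1.27, and for DKO 1.18, 1.33 and 1.23. The genotypes overlapped, and the highest values came from column 1 of MUTYH-/ and column 2 of OGG1-/. Divided by the mean of the other 19 chromosomes in the same column, the members stood at 1.28 on average, with a range of 1.19 to 1.41 (exact two-sided sign-flip permutation test over 12 columns, p = 0.000488, the smallest that 12 columns allow). The size depends on the measure: on OG reads divided by scaled input reads the ratio was 1.06, from 1.04 on chr20 to 1.08 on chr22.

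Each of the 4 chromosomes was above the rest in 12 of 12 columns (adjusted p = 0.000488 for each, same exact permutation test). On average the ratio was 1.44 for chr22, 1.31 for chr17, 1.24 for chr16 and 1.21 for chr20. In relative OG, chr22 had 1.44, 1.36 and 1.38 in the WT columns and 1.61, 1.33 and 1.30 in the MUTYH-/ columns. The OGG1-/ columns had 1.43, 1.60 and 1.44, and the DKO columns 1.25, 1.49 and 1.32. It was the highest of the 4 chromosomes in every column, and in 2 columns the highest of all 23. Over the 23 chromosomes its mean of 1.41 was second to chr15 at 1.495, a chromosome with 42.1% GC. Chr17 had 1.30, 1.25 and 1.26 in the WT columns and 1.42, 1.25 and 1.21 in the MUTYH-/ columns. Its values in the OGG1-/ columns were 1.28, 1.42 and 1.32, and in the DKO columns 1.18, 1.35 and 1.23. It followed chr22 in 11 of 12 columns, with a ratio of chr17 to chr22 of 0.915 (adjusted p = 0.000732, exact permutation test, 6 pairs of chromosomes).

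Chr16 and chr20 were close to each other. Chr16 lay between 1.16 and 1.31 in the columns of WT, MUTYH-/ and OGG1-/, and had 1.14, 1.25 and 1.19 in the DKO columns. Chr20 had 1.16, 1.14 and 1.15 in the WT columns, lay between 1.12 and 1.24 in those of MUTYH-/ and OGG1-/, and had 1.18, 1.31 and 1.23 in the DKO columns. The order chr22, chr17, chr16, chr20 held in all 9 columns of WT, MUTYH-/ and OGG1-/, whereas chr20 was above chr16 in all 3 DKO columns and in 1 of them also above chr17. The ratio of chr16 to chr20 was 1.03 on average (adjusted p = 0.0459, exact permutation test, above 1 in 9 of 12 columns), from 1.03 to 1.06 in the 9 columns and from 0.955 to 0.968 in DKO.

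**Figure D1:**
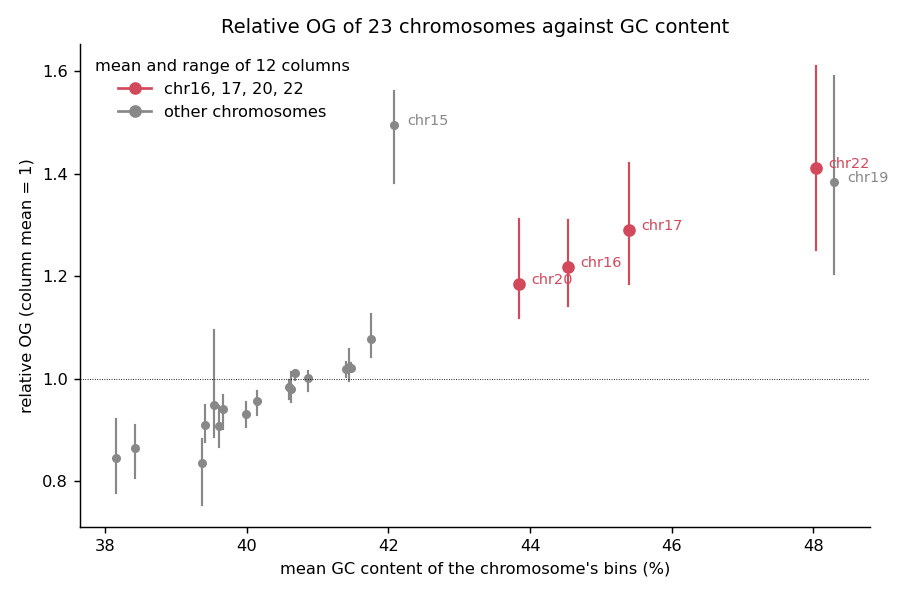
Relative OG of 23 chromosomes (mean and range of the 12 columns, vertical axis) against the mean GC content of their bins in percent (horizontal axis). The chromosomes rise with GC content, chr16, chr17, chr20 and chr22 (red) lie on that slope with means from 1.19 to 1.41, and chr15 stands above it at 1.495.

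Across the 23 chromosomes, relative OG followed GC content with Pearson's r from 0.744 to 0.922 in single columns, and from 0.866 to 0.996 without chr15. These values are over chromosomes of the same library, which share its depth and its GC dependence.

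How much of the level of the 4 chromosomes went with their GC content was then asked. All bins were placed in 20 GC strata, and the stratum means of the other 19 chromosomes gave an expected value in each column. Members were expected at 1.22 and observed at 1.26. The ratio was 1.03 ± 0.0144 (SD over 12 columns) and lay above 1 in 12 of 12 columns (p = 0.000488, exact sign-flip permutation test). The members' distance from the rest was thus smaller once GC content was matched, 1.03 in place of 1.28.

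By chromosome, the ratio to the GC-expected value was 1.05 for chr17 and 1.05 for chr22, both above 1 in 12 of 12 columns (adjusted p = 0.000977, exact permutation test). It was 1.02 for chr16, above 1 in 11 of 12 columns (adjusted p = 0.0013, exact permutation test). For chr20 it was 1.02 and above 1 in 8 of 12 columns, which did not pass (adjusted p = 0.113, exact permutation test). The input over its own GC-expected value was 1.04 on chr22, 1.02 on chr17, 1.02 on chr20 and 0.988 on chr16. Its part in the result was not tested. On the ratio of OG reads to input reads, which can be had because the values resolve into whole reads, the chr22 ratio was 1.00 (p = 0.245, exact permutation test). On the same measure it was 1.006 for the members together, 1.009 for chr16, 1.009 for chr17 and 1.001 for chr20.

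Along the GC strata, relative OG of the members rose from 0.393 in the lowest stratum (30.5% GC or less) to 1.72 in the highest (54.2% or more). In the 3 highest strata, from 48.0% GC, lay 32.5% of the member bins and 13.5% of the bins on the other chromosomes. At equal GC content the members were above the rest in 8 to 12 columns in each stratum from 34.7% GC on. In the 4 strata up to 34.6% GC they were above it in 5 columns or fewer.

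The slope itself differed between columns of 1 genotype. In the highest stratum, members had 1.75, 1.70 and 1.73 in the WT columns and 2.05, 1.44 and 1.58 in the MUTYH-/ columns. The OGG1-/ columns reached 1.797, 2.05 and 1.87, and the DKO columns 1.23, 1.91 and 1.59. All 3 OGG1-/ columns lay above the WT columns there and below them in the lowest stratum, while MUTYH-/ and DKO overlapped WT at both ends, and none of this was tested. Column 1 of MUTYH-/, column 2 of OGG1-/ and column 2 of DKO were also the lowest 3 in the AT-rich end, at 0.243, 0.212 and 0.190. These are the columns with the highest relative OG over the 4 chromosomes. In column 2 of MUTYH-/ and columns 1 and 3 of DKO, relative OG was highest in stratum 19 and fell in stratum 20.

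**Figure D2:**
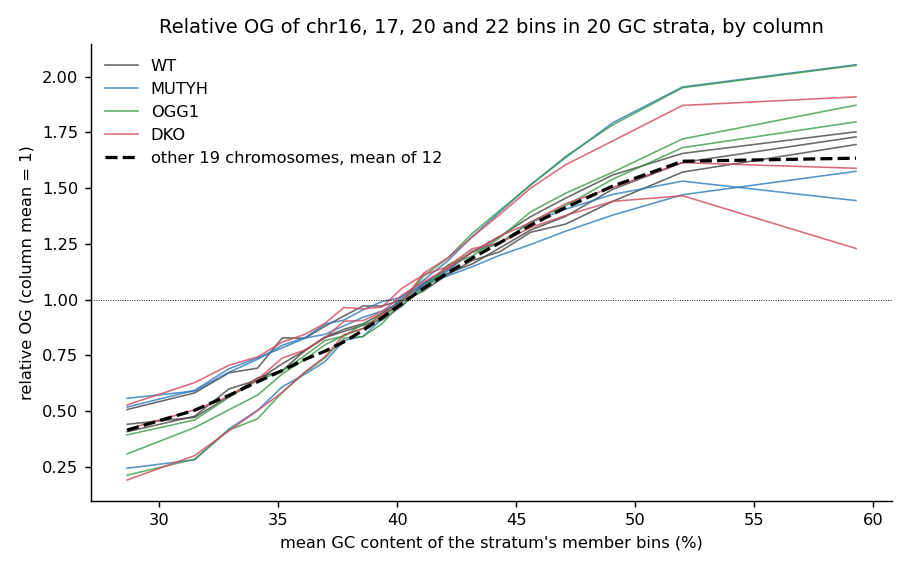
Relative OG of the member bins in 20 strata of GC content (vertical axis) against the mean GC content of the stratum in percent (horizontal axis), 1 line per column, coloured by genotype, with the mean of the other 19 chromosomes dashed. All columns rise with GC content, cross near 1 at about 40% and fan out at the GC-rich end from 1.23 to 2.05, where the OGG1-/ columns lie above the WT columns and the other genotypes overlap them.

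Within the chromosomes, 1 Mb windows were compared. There were 245 windows with at least 500 bins: 77 on chr16, 77 on chr17, 59 on chr20 and 32 on chr22. Their mean relative OG ranged from 0.637 to 1.85. It was above 1 in all 12 columns in 174 windows (71.02%), against 27.6% of 2531 windows on the other chromosomes, and below 1 in all 12 columns in 30 (12.2%, against 43.8% elsewhere). On chr22, 30 of 32 windows were above 1 in every column and none was below. The SD between windows was 0.268 and the median SD between the columns of a window 0.0919, so the landscape was larger than the spread of the columns. Over the 245 windows, Pearson's r was 0.898 with GC content and 0.651 with the number of protein-coding genes. Neighbouring windows are not independent, and both measures share base composition.

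Windows with more genes were higher on each chromosome when those with 1 to 9, 10 to 19 and 20 or more protein-coding genes were set in order. Over the 4 chromosomes, the 112 windows with 1 to 9 genes stood at 1.13 ± 0.0334 (SD over 12 columns, 43.4% GC). The 66 windows with 10 to 19 genes stood at 1.38 ± 0.0918 (46.5% GC). The 49 windows with 20 or more stood at 1.51 ± 0.140 (49.0% GC). The 18 windows without a protein-coding gene stood at 0.927 ± 0.0309 (39.6% GC). An exception was the start of 20q next to the centromere, chr20:29000001-30000000, which has no protein-coding gene and 39.99% GC but stood at 1.55. This window was picked after its value was seen. The input there was 1.4 to 1.49 times the GC-expected value in the 12 columns, and its part in the level was not tested.

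**Figure D3:**
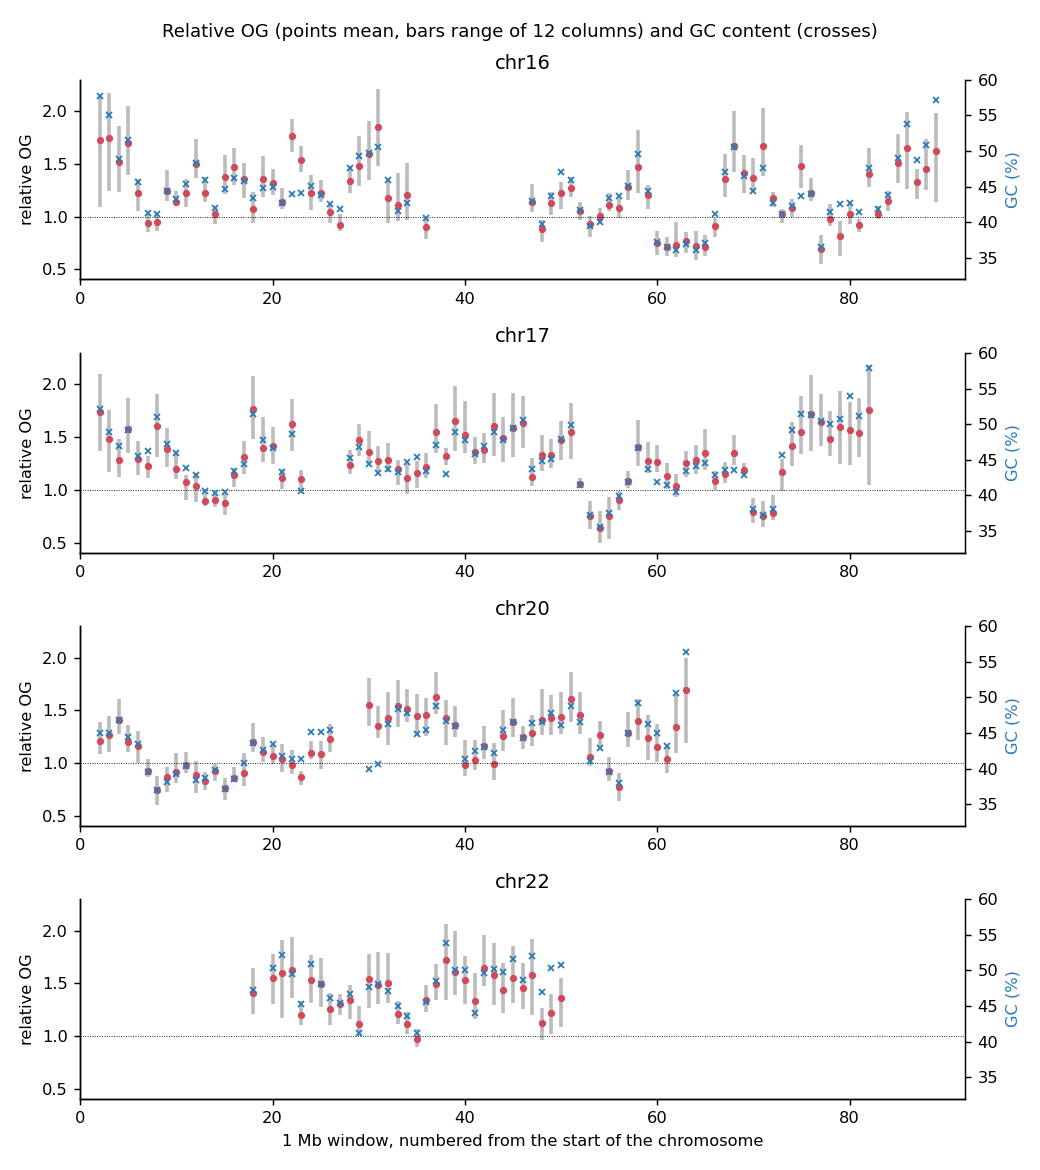
Relative OG (left axis, red points for the mean and grey bars for the range of 12 columns) and GC content in percent (right axis, blue crosses) of 1 Mb windows, numbered along chr16, chr17, chr20 and chr22. The 2 measures rise and fall together, with the lowest values in gene-poor stretches of chr16, chr17 and chr20 and almost all of chr22 above 1.

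The highest window of chr16, chr16:30000001-31000000, holds 49 protein-coding genes, among them the integrin subunit ITGAL, the chromatin remodeller SRCAP and BCL7C. Its mean relative OG was 1.85, from 1.66 in DKO to 2.04 in OGG1-/ (range of the 12 columns 1.48 to 2.21). The second, chr16:21000001-22000000 with the dynein DNAH3, the inner ear protein OTOA and CRYM, stood at 1.76 with 43.97% GC. Its input was 1.25 to 1.34 times the GC-expected value in every column, the largest such input among the 2 highest and 2 lowest windows of each chromosome. The lowest windows of chr16 were chr16:76000001-77000000 with the neuronal adhesion gene CNTNAP4, at 0.690, and chr16:60000001-61000000, which has no protein-coding gene, at 0.716.

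On chr17, chr17:17000001-18000000 and chr17:81000001-82000000 both stood at 1.76. The former holds RAI1, the gene of Smith-Magenis syndrome, MPRIP and TOM1L2. The latter, near the end of 17q, holds 37 protein-coding genes including NPLOC4, BAIAP2 and BAHCC1, and its columns differed widely, from 1.05 to 2.18, with 57.9% GC. The lowest window of all 245 was chr17:53000001-54000000 at 0.637 (range 0.492 to 0.798, 35.6% GC), in which the mitotic kinesin gene KIF2B is the only protein-coding gene. The window before it has none and stood at 0.748.

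On chr20 the arms differed. The short arm stood at 1.02 ± 0.0362 (SD over 12 columns) with 41.6% GC and the long arm at 1.31 ± 0.0857 with 45.5% GC. The corresponding levels were 1.31 and 1.15 for 16p and 16q, and 1.29 and 1.29 for 17p and 17q. The highest windows of chr20, chr20:62000001-63000000 at 1.69 with TAF4, OSBPL2 and DIDO1 and chr20:36000001-37000000 at 1.62 with DLGAP4, EPB41L1 and NDRG3, both lie on 20q. The lowest, with the glycolate oxidase gene HAO1 and TMX4 at 0.742 and with FLRT3 at 0.764, lie on 20p. On chr22 the range was narrower. The highest windows were chr22:37000001-38000000 at 1.72, with POLR2F, TRIOBP and ELFN2, and chr22:41000001-42000000 at 1.64, with MEI1 and the acetyltransferase EP300. The lowest were chr22:34000001-35000000 at 0.970, without a protein-coding gene, and chr22:28000001-29000000 at 1.11, with TTC28, ZNRF3 and the checkpoint kinase CHEK2.

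By annotation, 4.16% of the member bins lay in promoters (from 1000 bp before to 100 bp after a start), 5.61% in exons, 58.3% in introns and 31.96% between genes. Relative OG was 1.45 in exons, 1.40 in promoters, 1.26 in introns and 1.198 between genes. Relative to the value expected from GC content, exons stood at 1.07, above 1 in 12 of 12 columns, introns at 1.04, also in 12 of 12, and intergenic bins at 1.02 in 11 of 12. Promoters stood at 0.988 and were above the GC-expected value in 3 of 12 columns only. Bins with a G4 motif, 15.3% of the members, stood at 1.45 and at 0.989 of the GC-expected value, above it in 1 of 12 columns. The order was different for OG reads per input read, which were not matched for GC content. They were 1.106 times the genome average in G4 bins, 1.099 in promoters and 1.08 in exons. Introns had 1.05 and intergenic bins 1.04. The input was 1.03 of the mean bin in G4 bins, 1.02 in promoters and 1.10 in exons. Its part in the place of exons above promoters was not tested.

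CpG-dense bins (at least 55% GC and at least 0.6 of the CpGs expected from base composition) made up 1.36% of the members and varied most. They had 1.65, 1.38 and 1.71 in the WT columns and 1.28, 0.888 and 1.23 in the MUTYH-/ columns. The OGG1-/ columns had 1.35, 1.35 and 1.51, and the DKO columns 0.567, 1.25 and 1.02. The WT columns lay above all MUTYH-/ and DKO columns and overlapped OGG1-/. Over all 1 Mb windows, 2.38% were lower than WT without overlap in MUTYH-/ and 3.03% in DKO. Genotypes were not compared by OG reads per input read in the CpG-dense bins. No effect of a knockout is therefore read from the order of the columns in these bins. These bins were at 0.767 of the GC-expected value and above it in 1 of 12 columns, while their input was 0.699 of the mean bin (0.567 to 0.964). Their ratio of OG to input reads was 1.22 times the genome average, the highest of the 6 classes of bins. The subtraction of input and the ratio thus place these bins differently, and no test between genotypes was planned for them.

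Gene clusters and functional lists of the 4 chromosomes were set in the same scale. Of 17 lists, 9 stood above 1 in all 12 columns and 2 below 1 in all 12, with levels from 0.813 to 1.64 and a median of 1.14. Only the DNA repair and replication list and the redox list were above the GC-expected value in 12 of 12 columns, and only the cystatin cluster was below it in 12 of 12. In OG reads per input read, not matched for GC content, all member bins stood at 1.049 times the genome average. The DNA repair and replication list was slightly below that at 1.045, the redox list above it at 1.108 and the cystatin cluster below it at 1.018. These differences were not tested.

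The 25 genes of DNA repair and replication (1 of them, POLR2F, is a subunit of the RNA polymerases) stood at 1.32 ± 0.0758 (SD over 12 columns) and at 1.13 times the GC-expected value, with an input of 1.12 times the mean bin. Over their gene bodies, 24 of 25 were above 1 on average and 14 in every column. The share over all genes of these chromosomes was not counted. Of the 245 windows of 1 Mb, 200 were above 1 on average and 174 in every column. Nothing is therefore read from the gene counts. NTHL1, the glycosylase that removes oxidised pyrimidines, was highest at 2.12 ± 0.534, over 9 bins only. MCM5, a subunit of the replicative helicase, stood at 1.83, TOP3A, a topoisomerase that resolves recombination intermediates, at 1.74, and BRCA1, which acts in homologous recombination, at 1.34. The only one below 1 was the helicase gene BRIP1 at 0.789, in 185 bins with 36.0% GC. PCNA, the sliding clamp, stood at 1.11 and ranged from 0.389 to 2.01 over 13 bins.

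The 16 genes of the redox list (SOD1P2 among them is a pseudogene) stood at 1.64 ± 0.151 and at 1.14 times the GC-expected value, with an input of 1.16 times the mean bin. Of these, 15 were above 1 on average and 7 in every column, and as for the repair list nothing is read from these counts. SLC7A5, a subunit of an amino acid transporter, stood at 1.98, TXNRD2, the mitochondrial thioredoxin reductase, at 1.86, and the heme oxygenases HMOX1 and HMOX2 both at 1.74. NQO1, a quinone reductase, stood at 1.59. The prion protein gene PRNP was the only one below 1, at 0.838.

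**Figure D4:**
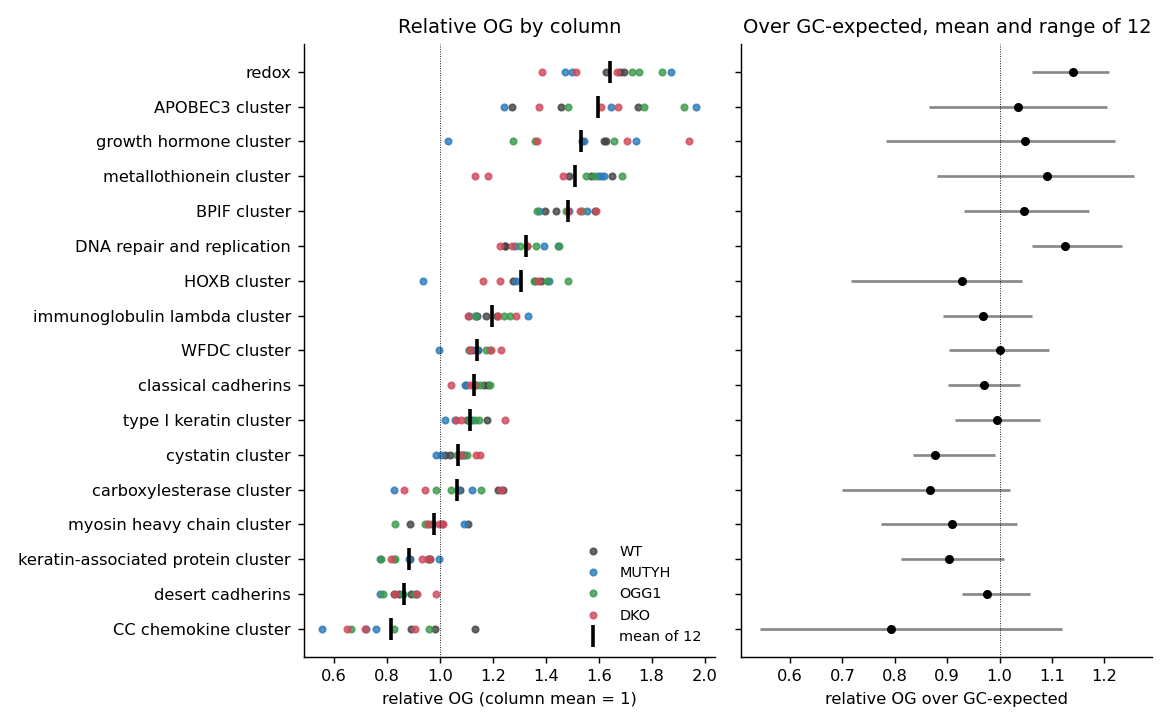
Relative OG of 17 gene clusters and gene lists on chr16, chr17, chr20 and chr22 (left, points for the 12 columns coloured by genotype and a bar for their mean) and the ratio to the GC-expected value (right, mean and range of 12 columns). The lists range from 0.813 to 1.64, the 4 genotypes overlap in nearly all of them, and only the redox and the DNA repair and replication lists lie entirely right of 1 in the right panel.

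Clusters of tissue-specific genes spread widely. The APOBEC3 cluster of cytidine deaminases on chr22 stood at 1.597 (52.0% GC), the growth hormone cluster on chr17 at 1.53, the metallothioneins, small metal-binding proteins on chr16, at 1.51, and the BPIF cluster of secreted defence proteins on chr20 at 1.48. The HOXB cluster of patterning factors stood at 1.30 and at 0.928 of the GC-expected value. At the other end, the CC chemokine cluster on chr17 stood at 0.813, the cadherins CDH5, CDH8 and CDH11 together at 0.865, the keratin-associated proteins at 0.882 and the skeletal muscle myosins at 0.976. The cystatin cluster on chr20, whose genes inhibit cysteine proteases, stood at 1.07 and 0.876 of the GC-expected value, in a span of 1510 bins. In several clusters the bins that overlap a listed gene were higher than the span that includes the stretches between them: 1.47 against 1.07 for the cystatins, 1.38 against 1.11 for the type I keratins, and 1.64 against 1.196 for the immunoglobulin lambda segments. Over bins centred in a listed gene the values were 1.52, 1.39 and 1.56. Single genes of these clusters rest on few bins: IGLJ3, a joining segment over 2 bins, stood at 3.84 with an input of 3.51.

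For the lists, 51 differences between a knockout and WT were tested. None passed (exact two-sided permutation test, smallest p = 0.1, which is the smallest that 3 columns against 3 allow, smallest adjusted p = 0.68). In 5 of the 51 the 3 knockout columns did not overlap the WT columns, 1 of 17 lists in MUTYH-/, 2 in OGG1-/ and 2 in DKO. Over all 1 Mb windows the share without overlap was 4.39%, 19.5% and 8.50%, and with so few lists nothing is read from these counts. The metallothionein cluster stood at 1.49, 1.57 and 1.65 in WT and at 1.13, 1.47 and 1.18 in DKO. The CC chemokine cluster stood at 0.891, 1.13 and 0.980 in WT and at 0.555, 0.719 and 0.757 in MUTYH-/. The redox list stood at 1.63, 1.68 and 1.70 in WT and at 1.75, 1.84 and 1.72 in OGG1-/. The other such lists were the keratin-associated proteins (0.935 in WT, 0.812 in OGG1-/) and the cadherins CDH1, CDH3, CDH13 and CDH15 (1.16 in WT, 1.09 in DKO).

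The last question was whether loss of the glycosylases changed relative OG on these chromosomes. Over the 4 chromosomes together, WT had 1.24 ± 0.0195 (SD, n = 3), MUTYH-/ 1.25 ± 0.0990, OGG1-/ 1.30 ± 0.0591 and DKO 1.25 ± 0.0767. An exact permutation test of the sum of squares between genotypes, over all groupings of the 12 columns, gave p = 0.722. None of the 12 differences between a knockout and WT on single chromosomes passed (smallest adjusted p = 0.4, exact two-sided permutation test). The 3 with columns that did not overlap WT were chr20 in DKO, 0.0920 above WT, chr16 in OGG1-/, 0.0509 above, and chr20 in OGG1-/, 0.0422 above (p = 0.1 each, exact permutation test, which is the smallest possible). Columns without overlap also occurred among the other 19 chromosomes. In OGG1-/, chr11 and chr15 were higher than WT and chr6, chr8 and chr18 lower. In DKO, chr6, chr11 and chr21 were higher and chr1 and chrX lower. Without column 2 of OGG1-/ the OGG1-/ differences were 0.0237 on chr16 and 0.0204 on chr20. In GC-centred values the OGG1-/ differences on chr16 and chr20 were 0.00257 and 0.000903, and the DKO difference on chr20 was 0.0846.

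Tested window by window with limma over the whole genome, no window of chr16, chr17, chr20 or chr22 was called in any knockout (adjusted p below 0.05), and the background over all 2776 windows was also 0% in each knockout. Without adjustment, p lay below 0.05 in 2 of the 245 windows in MUTYH-/, 7 in OGG1-/ and 20 in DKO, of which 17 lay on chr20. The background of these counts was 1.26%, 2.77% and 5.22% of all windows. By the second rule, that the 3 knockout columns lie outside the 3 WT columns, 6 of 245 windows were called in MUTYH-/, 48 in OGG1-/ and 23 in DKO, or 2.45%, 19.6% and 9.39%. The background was 4.39%, 19.5% and 8.50%, so that the members together did not stand out in number.

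They stood apart in direction in OGG1-/. Of 245 windows, 41 were higher than WT in OGG1-/ (16.7%, background 8.14%) and 7 lower (2.86%, background 11.3%). The median difference was 0.0632 over the members and -0.0152 over the windows of the other chromosomes. On chr22, 31 of 32 windows had a positive difference. With GC-centred values the median over the members was 0.00868, and without column 2 of OGG1-/, the column with the steepest GC slope of that genotype, it was 0.0252. The largest differences among these windows were chr17:80000001-81000000 with RPTOR, the scaffold of mTOR complex 1, RNF213 and CCDC40, from 1.40 to 1.73 (difference 0.328, SE 0.116, adjusted p = 0.846 by limma), then chr16:1000001-2000000 with IFT140, CACNA1H and CRAMP1, from 1.72 to 1.97, and chr16:88000001-89000000 with BANP, CBFA2T3 and ZFPM1, from 1.599 to 1.83. All have over 50% GC (51.1%, 57.8% and 57.2%).

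In MUTYH-/, 3 windows were higher than WT (background 2.02%) and 3 lower (background 2.38%). Over all 245 windows, with or without overlap, the differences ranged from -0.171 to 0.169. Among the windows without overlap, the largest difference was at chr22:34000001-35000000, the lowest window of chr22. It had 0.940, 0.936 and 0.893 in WT and 1.05, 0.970 and 0.986 in MUTYH-/. Windows with SNAP25, a protein of synaptic vesicle fusion, from 1.00 to 0.926, and with the helicase DHX35, from 0.968 to 0.893, followed on chr20.

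In DKO, chr20 differed from chr16, chr17 and chr22. Outside the 4 chromosomes, the DKO columns were also above WT without overlap on some chromosomes. Chr6 stood at 1.03 in DKO and 0.932 in WT, chr11 at 1.04 and 1.01, and chr21 at 0.998 and 0.970. Below WT without overlap were chr1 (1.06 and 1.09) and chrX (0.795 and 0.859). Of the 59 windows of chr20, 16 were above WT without overlap (27.1%, background of higher windows 5.48%) and none was below. On chr16, chr17 and chr22 together 6 of 186 were above (3.23%) and 1 below (background of lower windows 3.03%). The median difference was 0.0965 over the windows of chr20, 0.00128 on chr16, -0.0192 on chr17 and -0.0504 on chr22. Among the windows without overlap, the largest difference was at chr20:61000001-62000000 with the cadherin CDH4, from 1.28 to 1.49. Next were chr20:16000001-17000000 with KIF16B, OTOR and SNRPB2, from 0.811 to 0.989, and chr20:42000001-43000000 with the receptor phosphatase PTPRT, from 0.929 to 1.11. With GC-centred values limma called 3 of the 245 windows in DKO, against a background of 1.04% (29 of 2776 windows). All 3 lay on chr20 and were higher: chr20:46000001-47000000 (adjusted p = 0.0487), chr20:54000001-55000000 (adjusted p = 0.0367) and chr20:61000001-62000000 (adjusted p = 0.00441).

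Against its GC-expected value, relative OG of chr20 was 1.06, 1.08 and 1.07 in the DKO columns. All 3 were above the other 9 columns, which lay between 0.988 and 1.01. The input reads of chr20 moved with it. Over GC-expected, the input was 0.998, 1.00 and 0.985 in WT and 1.07, 1.07 and 1.07 in DKO, with 0.987 to 1.01 in OGG1-/ and 0.997 to 0.999 in MUTYH-/. The ratio of OG to input reads on chr20 was 1.03 in WT and 1.03 in DKO, a difference of -0.00111 (p = 1, exact permutation test).

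The DKO columns did not share 1 pattern along chr20. In columns 1 and 2 the input was above all 9 columns of the other genotypes in 33 and 32 of 35 windows before 39 Mb and in 24 and 23 of 24 windows after it. In column 3 it was above them in 21 of 35 windows before 39 Mb and in 24 of 24 after it, with a median of 1.00 before and 1.13 after. Relative OG of column 3 over GC-expected was likewise 1.03 before 39 Mb and 1.13 after, whereas column 1 stood at 1.07 and 1.04 and column 2 at 1.08 and 1.08. The split at 39 Mb was chosen after the input of column 3 was seen. The DKO minus WT difference in relative OG was 0.0614 before 39 Mb and 0.136 after, and 0.0570 over chr20 when column 2 of DKO was left out. Reads per bin do not tell more DNA copies of chr20 in a culture from more reads per copy, and these cannot be told apart here.

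**Figure D5:**
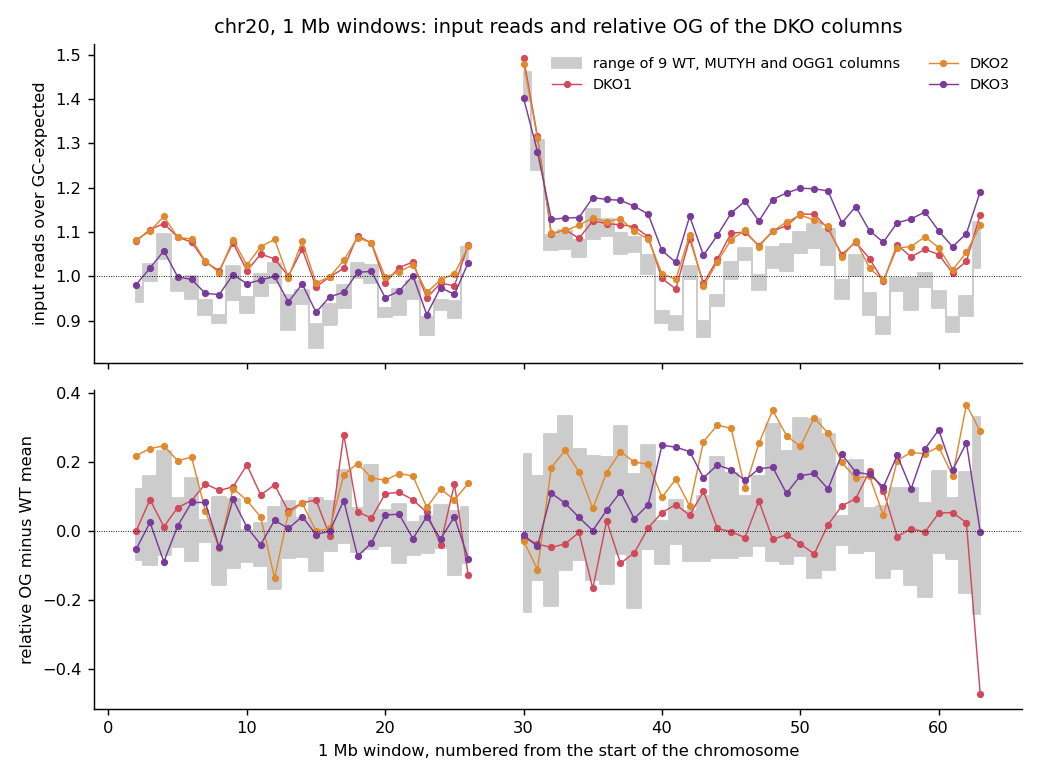
1 Mb windows along chr20, numbered from its start: input reads over the GC-expected value (top) and relative OG minus the mean of the 3 WT columns (bottom) in the 3 DKO columns, with the range of the other 9 columns in grey. In the top panel columns 1 and 2 of DKO lie above the grey range along nearly the whole chromosome, and column 3 above all 9 in 24 of 24 windows of the last part; in the bottom panel columns 2 and 3 lie mostly above 0 there.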

How the data were processed

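The deposited values are a score per 1 kb bin of GRCh38 in OG reads. The authors trimmed reads with cutadapt 2.8, mapped them with Bowtie2 2.3.5.1, counted them per bin, removed blacklisted bins, scaled the input by signal extraction scaling and subtracted it, so values can lie below 0. A constant offset or a GC bias left by the subtraction would move with GC content. In each column all but at most 8 bins could be solved as whole OG reads minus whole reads of 2 input runs times factors, which gave depth and input. This step and the window test were tested on simulated data. Columns were divided by their mean. GC strata, exact permutation tests and limma 3.58.1 with a mean-variance trend (R 4.3.3) on windows of at least 500 bins were used, with Benjamini-Hochberg adjustment over all windows of a contrast. Sequences were read from GRCh38 and genes from GENCODE 44. Named windows were the 2 highest and 2 lowest of each chromosome and the 3 with the largest difference among those not overlapping WT in each knockout. Up to 3 of the longest genes centred in a window were named, and 1 such gene is not reported here. Named starts were the highest and lowest of each chromosome. The chromosomes, lists and tests were chosen with earlier results of these data known. Python 3.11.15 was used.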

Additional observations from a re-analysis of the deposited data

Results flagged for a closer look

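Input reads are not the main measure of the comparisons above. They were searched for knockouts whose 3 columns all lay above WT, over GC-expected, and 1 signal was found. On chr20 the input over its GC-expected value was 1.07 ± 0.00355 (SD, n = 3) in DKO and 0.996 ± 0.00988 in WT, without overlap (p = 0.1, exact permutation test, the smallest that 3 columns against 3 allow). Lower input was not searched for. The DKO columns also lay below WT without overlap on chr16 (mean 0.974 against 0.995) and chr17 (1.00 against 1.02). On chr22 they did so too (1.02 against 1.05), with p = 0.1 on each of these chromosomes (exact permutation test). Groups of 3 columns were too small to look for single outlying columns.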

How the results depend on the processing

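The ratio of the 4 chromosomes to the rest stayed above 1 with p below 0.05 under all alternatives, for the members together and for each chromosome. For the members it was 1.06 on OG to input reads and 1.21 with values below 0 set to 0. Of the ratios to GC-expected values, only that of chr22 lost its call, on OG to input reads (1.00). On that measure the other ratios were also closer to 1: 1.006 for the members, 1.009 for chr16 and 1.009 for chr17. Chr20, at 1.001, had no call in the main setting either. The exact test of a knockout against WT cannot pass with 3 columns a group. Signs turned with the column median as divisor for MUTYH-/ on chr16 (-0.000124) and chr20 (-0.00616), with values below 0 set to 0 for MUTYH-/ on chr22 (-0.00139), and on OG to input reads for DKO on chr20 (-0.00111). In unscaled reads DKO was above WT by 1.83 on chr16, 1.91 on chr17 and 1.90 on chr22. The called windows of DKO rose from 0 to 3 with GC-centred values. The cause was not tested. The median of the lists was 1.32 over bins in listed genes only and 1.04 on OG to input reads. With each column left out in turn, the member ratio ranged from 1.27 to 1.29. MUTYH-/ minus WT ranged from -0.0299 to 0.0468 on chr16, -0.0427 to 0.0641 on chr17, -0.0300 to 0.0288 on chr20 and -0.0795 to 0.0780 on chr22. OGG1-/ minus WT stayed positive: 0.0237 to 0.0702 on chr16, 0.0300 to 0.0975 on chr17, 0.0204 to 0.0541 on chr20 and 0.0387 to 0.126 on chr22. DKO minus WT ranged from -0.0398 to 0.0157 on chr16, -0.0618 to 0.0222 on chr17 and -0.105 to 0.0153 on chr22, and stayed positive on chr20 (0.0570 to 0.123). The DKO windows called ranged from 0 to 1, the 1 without DKO column 3, when 47 of 2776 windows were called over the genome.

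With the column number as a replicate block, limma called 0 windows in each knockout and DKO minus WT on chr20 was 0.0920 (p = 0.25, exact sign-flip permutation test, the smallest that 3 pairs allow). Correlations of the deviations of same-numbered columns ranged from -0.787 to 0.742 and were over 0.1 in 8 of 18 pairs. All 3 pairs were over 0.1 for MUTYH-/ with WT (0.2001 to 0.421) and for DKO with OGG1-/ (0.134 to 0.742), but not for OGG1-/ or DKO with WT. What a number stands for is not known here, and the block changed no call.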
